A study of Mus musculus with 6 samples.

Results

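DN cells of the fetal mouse thymus, which carry neither CD4 nor CD8, were compared between those that had left the cultured organ (emigrants) and those still inside it (thymocytes), in cultures that received the solvent dioxane and no TCDD. The comparison used 3 of the 6 arrays of the series, chosen by their titles: 2 of dioxane emigrants and 1 of dioxane thymocytes. All cells came from C57BL/6 lobes explanted at day 15 after conception, kept for 6 days with fresh medium every 2 days and harvested at day 21. Emigrants were collected from the buffer flushed off the lobes, thymocytes by grinding them, and magnetic beads against CD4 and CD8 then left the DN fraction, whose cells were pooled before RNA was made. A dioxane concentration of 0.1% by volume stands on the thymocyte label alone. The other 3 arrays, of cultures with 10 nM TCDD (1 of thymocytes and 2 of emigrants), served here only as a second, separate comparison. The 2 emigrant arrays of each treatment are called by their label numbers, and no source says that they came from separate cultures.

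T-cell precursors pass through the DN stage first. There they express the IL-2 receptor alpha chain (Il2ra, CD25), cut and join their receptor genes with the RAG proteins and terminal transferase, and pair a first receptor beta chain with the pre-TCR alpha chain (Ptcra), after which Il2ra and Ptcra are switched off. A thymus lobe also holds macrophages, which engulf dying thymocytes and digest them in lysosomes, and a mesh of fibroblasts that lay down collagen. These cells, like granulocytes and red-cell precursors, largely carry neither CD4 nor CD8, so the beads do not take them out.

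The transcription factor PU.1 drives myeloid genes through the purine-rich core GAGGAA, and E proteins drive Ptcra and other genes of early T cells through E-boxes such as CAGCTG. The 250 bases upstream of the start site are shown for 2 macrophage genes that were higher on both emigrant arrays, Mrc1 and Cd68, and for Ptcra, which was lower on both. The sequences are RefSeq's on build GRCm38.p6, read 5′ to 3′ on the strand of the gene. Capitals mark GAGGAA on either strand in Mrc1 (chr2:14229164-14229413, plus strand) and Cd68 (chr11:69666171-69666420, minus strand), and CAGCTG in Ptcra (chr17:46763713-46763962, minus strand). The 3 genes were picked after the search.
Mrc1: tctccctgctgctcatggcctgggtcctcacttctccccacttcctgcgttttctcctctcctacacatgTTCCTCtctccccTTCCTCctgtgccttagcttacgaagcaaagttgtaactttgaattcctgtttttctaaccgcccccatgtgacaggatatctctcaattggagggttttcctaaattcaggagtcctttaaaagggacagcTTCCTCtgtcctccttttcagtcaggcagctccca
Cd68: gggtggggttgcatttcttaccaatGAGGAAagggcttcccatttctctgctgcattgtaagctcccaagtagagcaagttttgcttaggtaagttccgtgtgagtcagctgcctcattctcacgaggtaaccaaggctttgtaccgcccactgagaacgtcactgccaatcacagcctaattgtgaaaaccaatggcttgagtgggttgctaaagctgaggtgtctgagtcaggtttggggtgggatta
Ptcra: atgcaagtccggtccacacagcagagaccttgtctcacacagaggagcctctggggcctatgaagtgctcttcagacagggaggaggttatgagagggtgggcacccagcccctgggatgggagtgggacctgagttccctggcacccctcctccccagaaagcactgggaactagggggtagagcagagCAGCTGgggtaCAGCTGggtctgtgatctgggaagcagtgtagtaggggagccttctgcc
Mrc1 holds 3 copies of GAGGAA, Cd68 holds 1 with a CAGCTG besides, and Ptcra holds 2 copies of CAGCTG. Over all 32851 promoters of the table, 23.3% held GAGGAA and 13% held CAGCTG on either strand; the motifs can share at most 1 base. Of the genes at least 2-fold higher on both emigrant arrays, 118 had a window, and 34 of these (28.8%) held GAGGAA and 19 (16.1%) CAGCTG. Of the genes lower on both, 104 had a window, and 33 (31.7%) held GAGGAA and 10 (9.62%) CAGCTG. The GAGGAA core was thus no more frequent in the higher set than in the lower one, and a match describes only the letters of the window.

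The arrays differed in ways that touch every result here. RMA medians were 4.84 to 4.88 log2 units over all 6 arrays, and the highest control probe set for a bacterial poly-A transcript, taken as the floor of measurable signal, read 4.72 on the thymocyte array, 4.32 on emigrants 1 and 4.45 on emigrants 2. A difference with 1 side under the floor is a bound. Hybridisation controls (18 probe sets) had a median of 7.11 on the thymocyte array, the lowest of the series, against 8.82 and 8.57 on emigrants 1 and 2, and the 3′ minus 5′ signal of Gapdh was 6.10 there against 4.75 and 4.69. The part of these differences in the results was not tested. Over 12393 genes the thymocyte array correlated with emigrants 2 at r = 0.966 and with emigrants 1 at r = 0.914, and the emigrant arrays with each other at r = 0.921. Genes are not independent replicates, and the number of arrays limits the precision.

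Genes typical of DN thymocytes were high on the thymocyte array, in part on emigrants 2, and for fewer of them on emigrants 1. The titles of the emigrant arrays name DN thymus emigrants and give no cell lineage. Ptprc (CD45), present on all nucleated blood cells, read 11.51 on the thymocyte array, 11.97 on emigrants 1 and 11.79 on emigrants 2. Rag1, which cuts the receptor genes, read 9.70, 3.72 and 9.99 on the same arrays, so it was under the floor on emigrants 1 alone. Thy1, the classical thymocyte surface marker, read 9.70, 5.69 and 9.07. The T-lineage factor Bcl11b read 7.45, 4.04 and 7.20. Emigrants 1 was therefore low in several genes typical of DN thymocytes, while emigrants 2 stood close to the thymocytes for Rag1, Thy1 and Bcl11b. Ptcra, Il2ra and Cd3e, also genes of these cells, were at least 2-fold lower on both emigrant arrays. Their differences on emigrants 2 were -2.70, -2.40 and -1.23. Cd8a, a target of the beads, read 4.70, 4.69 and 5.50, and Cd4 read 5.18, 5.19 and 4.94; Cd8a on emigrants 2 was the furthest above the floor. Some markers of red-cell precursors went the other way. Car1, a red-cell carbonic anhydrase, read 4.18, 9.44 and 4.08, and Rhag, a red-cell membrane protein, read 3.23, 8.30 and 3.27. Of 17 erythroid genes 8 were at least 2-fold higher on emigrants 1 (5.17% of all genes) and 1, Car2 (5.76, 11.93 and 7.41), on emigrants 2 (3.63%). The list's summed level (log2 of its added linear values) was 11.16, 13.01 and 11.15. For this reason each emigrant array is given separately throughout. In these bulk samples, fewer cells of a type and less RNA per cell cannot be told apart.

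Between the emigrant arrays and the thymocyte array, many macrophage, lysosomal and S100 genes were higher on both emigrant arrays, and several fibroblast collagens together with Ptcra and Il2ra were lower on both. At least 2-fold differences (1 log2 unit) were found for 641 genes higher (5.17%) and 821 lower (6.62%) on emigrants 1, and for 450 higher (3.63%) and 251 lower (2.03%) on emigrants 2. Agreement on both arrays was reached by 152 genes higher (1.23%) and 137 lower (1.11%), and 19 genes were at least 2-fold different in opposite directions. The counts thus shrank by more than 1.5 times when both arrays were required. Both differences use the same single thymocyte array, so a value particular to that array would place a gene in both. The brighter side was above the floor for all 152 higher genes and for 136 of the 137 lower ones, and 139 and 129 stayed at least 2-fold with values under the floor raised to it. The median difference over all genes was 0.00 on emigrants 1 and -0.06 on emigrants 2.

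No gene passed the test. A limma fit on all 6 arrays, which estimates the spread from the 2 emigrant pairs with 2 residual degrees of freedom, called 0 of 12393 genes (0.0%) after Benjamini-Hochberg adjustment, with a smallest adjusted p of 0.734. At an unadjusted p under 0.05 it had 382 genes, 175 higher and 207 lower, and the median standard error was 0.353 log2 units. The differences that follow are therefore measurements on 3 arrays and not calls. Where arrays share a culture, such p-values cover technical spread only, and the lone thymocyte array is assumed to vary like the emigrants.

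**Figure D1:**
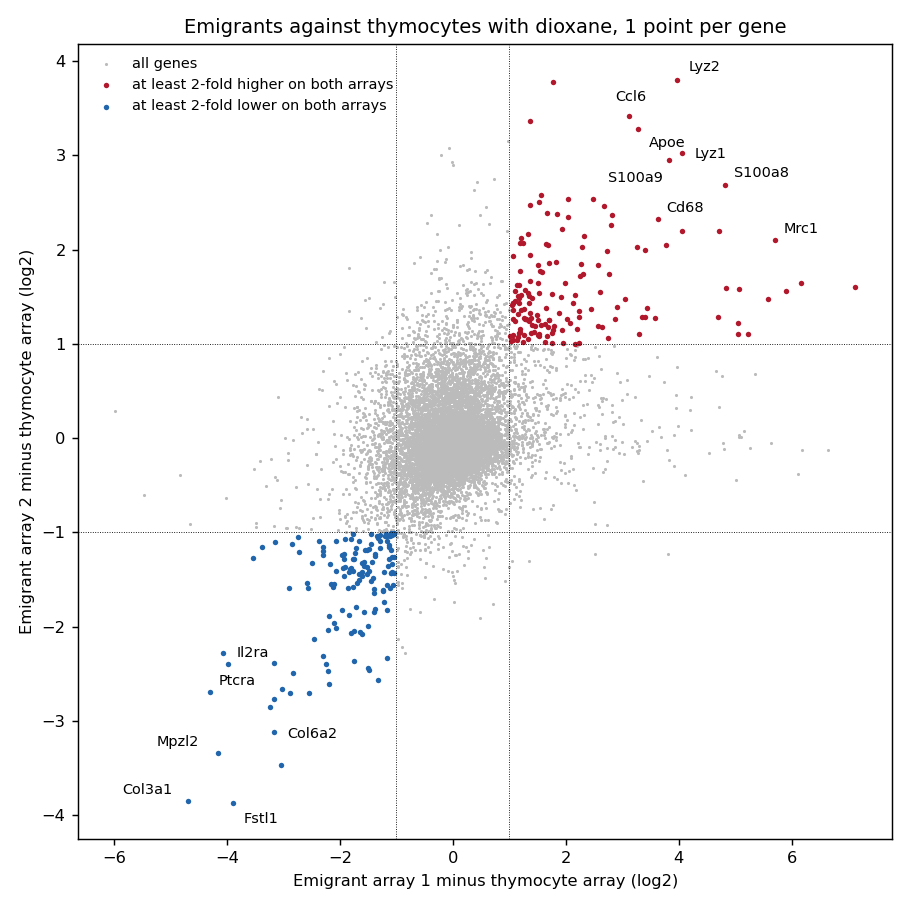
Difference of emigrants 1 (x axis) and emigrants 2 (y axis) from the thymocyte array in log2 units, 1 point per gene for 12393 genes; dotted lines mark 2-fold. The 152 genes in red were at least 2-fold higher and the 137 in blue at least 2-fold lower on both arrays; the cloud is wider along the x axis, where 641 and 821 genes passed 2-fold, than along the y axis with 450 and 251.

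Among genes higher in emigrants, those of macrophages led. Lyz2, the lysozyme of macrophages and neutrophils, read 5.96 on the thymocyte array, 9.93 on emigrants 1 and 9.75 on emigrants 2, a difference of 3.97 and 3.80. The mean difference was 14.8-fold, and limma gave it a standard error of 0.45 log2 units and an adjusted p of 1.00. Its neighbour Lyz1 read 8.10, 12.15 and 11.13; the 2 genes are near-identical copies, so their probe sets may share signal. Both emigrant arrays stood far above the thymocytes for lysozyme and within 1.03 log2 units of each other.

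Apoe, the lipid carrier that macrophages secrete, read 4.51 (under the floor) on the thymocyte array and 7.79 on both emigrant arrays, a difference of at least 3.06 and 3.07. Its mean difference of 3.28 had a limma standard error of 0.27 and an adjusted p of 0.734, the smallest of the fit. Selenop, a secreted selenium carrier, read 8.73, 11.40 and 11.19, and the scavenger receptor Cd36 read 4.27 (under the floor), 7.08 and 6.63. The emigrant arrays were within 0.45 log2 units of each other for all 3. Only 1 of the 3 probe sets of Cd36 reached 2-fold on both arrays, though none pointed the other way.

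The macrophage genes Mrc1, Cd68, Mpeg1 and Csf1r were higher on both arrays too, with a larger difference on emigrants 1. Mrc1, the mannose receptor whose promoter is shown above, read 4.51 (under the floor), 10.21 and 6.61. Cd68, a lysosomal membrane protein of macrophages whose promoter is also shown, read 4.94, 8.56 and 7.26. Mpeg1, the perforin-2 of macrophages, read 6.87, 11.57 and 9.07. For these 3 genes both emigrant arrays lay above the thymocyte value but 1.31 to 3.60 log2 units apart. Csf1r, the receptor for the macrophage growth factor CSF-1, read 7.54, 12.59 and 8.64.

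Of the 22 measured genes on the macrophage and monocyte list, 15 were at least 2-fold higher on both arrays and none was lower, against 1.23% of all genes. The list median was 2.84 on emigrants 1 and 1.31 on emigrants 2, and its summed level was 11.18 on the thymocyte array, 14.69 on emigrants 1 and 13.23 on emigrants 2. The 7 others were Adgre1, Cd14, C1qa, C1qc, Vsig4, Marco and Trem2. Adgre1, a defining surface marker of resident macrophages, read 6.00, 9.46 and 6.66, and the complement gene C1qa 5.07, 7.73 and 5.49. These defining markers were thus clearly higher on emigrants 1 and little different on emigrants 2. How far macrophages among the DN cells account for the difference was not tested.

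Lysosomal genes were higher to about the same extent on both arrays, with list medians of 1.13 and 1.12. Of 19 measured, 9 agreed (8 with values under the floor raised to it), against 1.23% of all genes. None was lower by 2-fold on either array. The cathepsins, proteases of the lysosome, included Ctsd at 7.38, 8.51 and 9.0 and Ctss at 9.58, 12.31 and 11.57. The list shares Ctsb, Ctss and Cst3 with the macrophage list. Psap, which activates lysosomal lipid breakdown, read 8.83, 10.19 and 10.26, and Lamp1, a membrane protein of all lysosomes, 8.79, 10.22 and 9.92. Ctsl alone among the cathepsins differed in sign, by -0.68 on emigrants 1 and 1.86 on emigrants 2.

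S100 and annexin genes, which encode calcium-binding proteins, also agreed in 6 of 14, against 1.23% of all genes. S100a6 read 5.70 on the thymocyte array, 8.18 on emigrants 1 and 8.23 on emigrants 2. The neutrophil and monocyte pair S100a8 and S100a9 was higher with a spread between the emigrant arrays: S100a8 read 4.73, 9.55 and 7.42, and S100a9 read 4.55 (under the floor), 8.37 and 7.50. Anxa1, an annexin of myeloid cells, read 6.96, 10.36 and 8.95. S100a4, a gene of motile cells, was higher on emigrants 2 alone, at 6.65, 6.66 and 9.55.

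Granule genes of the neutrophil line separated the emigrant arrays. Of 15 measured neutrophil genes, 13 were at least 2-fold higher on emigrants 1 (5.17% of all genes) and 4 on emigrants 2 (3.63%). The list medians were 3.17 and 0.46, and the 4 were S100a8, S100a9, Lcn2 and Chil3. Lcn2 read 3.80 on the thymocyte array, under the floor, and was higher on emigrants 2 by at least 0.18. Chil3, a chitinase-like protein of myeloid cells, read 4.53 (under the floor), 11.66 and 6.13. The granule proteases Elane, Prtn3 and Ctsg of early granulocytes differed from the thymocytes by -0.30, -0.11 and -0.09 on emigrants 2. The summed level of the list was 9.36, 13.74 and 10.19.

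Some chemokines that myeloid cells make were higher on both emigrant arrays. Ccl6 read 6.54 on the thymocyte array, 9.66 on emigrants 1 and 9.96 on emigrants 2, and both its probe sets agreed. Its mean difference of 3.27 had a limma standard error of 0.30 and an adjusted p of 0.734. Ccl9, its neighbour in the same family, read 5.64, 7.68 and 8.18, but its other probe set had the opposite sign. Ccl3 (4.82, 6.00 and 5.97) and Ccl5 (7.61, 10.18 and 8.79) completed the 4 of 21 ligands that were at least 2-fold higher on both, against 1.23% of all genes. Cxcl1 was at least 2-fold lower on both (-2.55 and -2.71), the 1 ligand to be so, against 1.11% of all genes. The list medians were 0.25 on emigrants 1 and -0.03 on emigrants 2. Ccr2, the receptor with which monocytes leave the marrow, read 4.68 (under the floor), 6.97 and 6.70.

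Of the remaining genes named by rank, Plek, a cytoskeletal protein of blood cells, read 4.81, 7.61 and 7.07; 1 of its 3 probe sets reached 2-fold on both arrays. Slfn4, an interferon-responsive gene of myeloid cells, read 4.41 (under the floor), 8.47 and 6.60. Eif2s3y, a translation factor subunit on the Y chromosome, read 5.20, 7.53 and 7.34. The labels do not give the sex of the pooled lobes. Kdm5d, also on the Y chromosome, was level and near the floor at 4.70, 4.76 and 4.57. Uty, a further Y gene, read 3.64 (under the floor), 4.69 and 4.36 (under the floor). Of these Y genes only Eif2s3y was clearly above the floor on both emigrant arrays. Xist, made in female cells, read 10.41, 8.92 and 10.57, so only emigrants 1 had less of it.

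NK and innate lymphoid genes were at least 2-fold higher on both arrays for 8 of 17, against 1.23% of all genes, and for 6 with values under the floor raised to it, with list medians of 1.19 and 0.94 and a summed level of 9.84, 11.43 and 11.39. Klrd1 (CD94), a subunit of NK receptors, read 6.73, 8.10 and 10.09, and Id2, which blocks E proteins and is needed for NK cells, read 5.87, 7.72 and 8.25. The T-box factors of NK and cytotoxic cells were higher as well: Tbx21 read 4.2 (under the floor), 5.53 and 5.74, a difference of at least 0.81 and 1.02, and Eomes 5.19, 6.29 and 6.75. Among the 8, Fcer1g and Tyrobp are signal adaptors that macrophages share. Ncr1 (NKp46), a defining NK marker, read 4.90, 4.44 and 4.69 and was near the floor on every array. Klrc1, partner of Klrd1, read 3.05 (under the floor), 4.82 and 6.83, a difference of at least 0.10 and 2.11, and its other probe set had the opposite sign.

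Some lymphoid genes, picked after their values were seen, were high on emigrants 2 alone. Cxcr6, a chemokine receptor of effector and innate-like T cells, read 5.11 on the thymocyte array, 5.03 on emigrants 1 and 8.18 on emigrants 2. Cxcr3, another receptor of such cells, read 5.32, 6.04 and 8.07, and the cytotoxic protease Gzmb 6.11, 5.71 and 8.47. Gzmb is on the cytotoxic granule list, of which 5 of 15 genes were at least 2-fold higher on emigrants 2 (3.63% of all genes) at a median of 0.03. Coro1a, an actin regulator needed for T cells to leave the thymus, read 6.69, 6.22 and 8.97. The egress receptor S1pr1 read 5.91, 6.71 and 6.09, and Klf2, which induces it, read 4.87, 5.11 and 4.49. Of 17 homing and egress genes, Ccr2 and Adgre5 (CD97) alone were at least 2-fold higher on both, against 1.23% of all genes. None was at least 2-fold lower on both.

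Some genes that restrain the cell cycle were also higher. Rb1, the retinoblastoma protein, read 6.63, 8.12 and 7.94, and Btg1, an antiproliferative gene, read 8.32, 9.36 and 9.73. These were the 2 of 16 on the list that agreed, against 1.23% of all genes. The CDK inhibitor Cdkn2c read 7.31, 8.32 and 7.81, less than 2-fold higher on emigrants 2. Of 22 DNA replication genes 7 were at least 2-fold lower on emigrants 1 (6.62% of all genes) and 2 on emigrants 2 (2.03%). The medians were -0.78 and -0.07. Gins1, part of the replicative helicase, was lower on both at 8.65, 7.17 and 6.19. The mitosis list was level, with medians of -0.19 and 0.15 over 24 genes. Its 1 gene at least 2-fold higher on both was Ncapg2 (7.55, 8.70 and 9.05), against 1.23% of all genes, and none was lower on both by 2-fold.

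**Figure D2:**
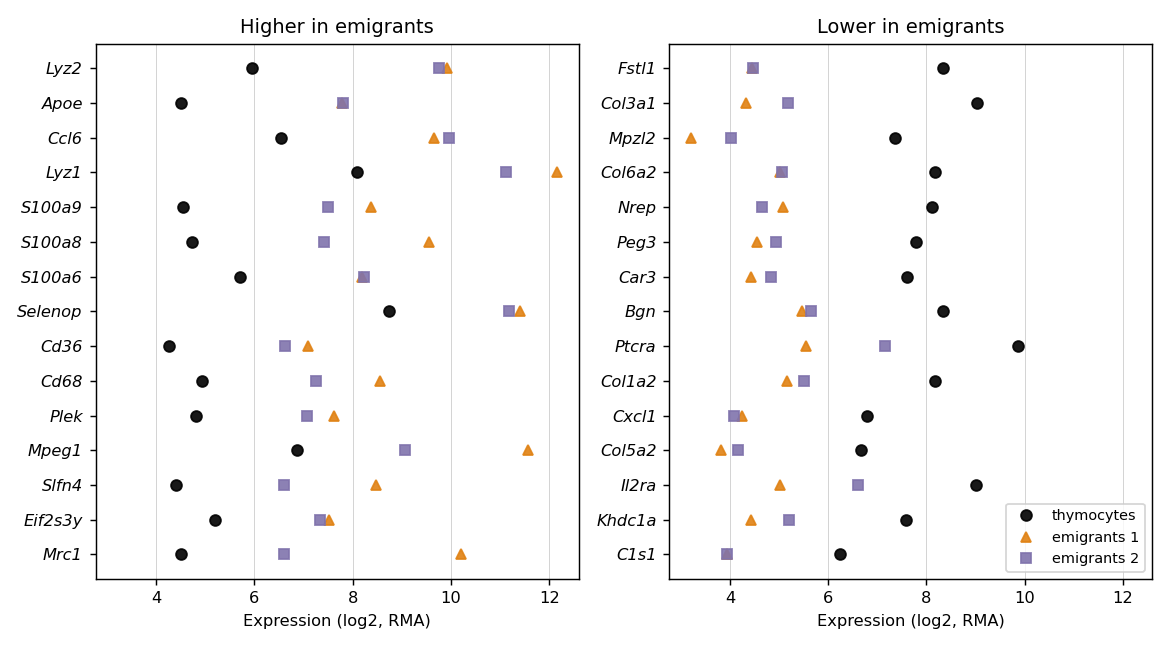
Log2 RMA level of the 15 leading genes in each direction on the thymocyte array (circle), emigrants 1 (triangle) and emigrants 2 (square). The emigrant symbols lie to the right of the circle on the left panel and to its left on the right panel; for Mrc1 the emigrant arrays are 3.60 log2 units apart, and for Apoe and Fstl1 they coincide.

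Among genes lower in emigrants, extracellular matrix genes of fibroblasts led. Fstl1, a secreted glycoprotein of mesenchyme, read 8.34 on the thymocyte array, 4.44 on emigrants 1 and 4.47 on emigrants 2, and both its probe sets agreed. Col3a1, a fibrillar collagen, read 9.03, 4.33 and 5.18. Col6a2, a microfibril collagen, read 8.17, 5.01 and 5.05, and its mean difference of -3.14 had a limma standard error of 0.28 and an adjusted p of 0.734. The emigrant arrays were low and close to each other for all of them.

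Further members of the group behaved alike on these 3 arrays. Bgn (biglycan), a matrix proteoglycan, read 8.34, 5.46 and 5.64, and all 3 of its probe sets agreed. Col1a2, a chain of the main collagen of connective tissue, read 8.17, 5.16 and 5.51. Col5a2, which regulates collagen fibril width, read 6.66 on the thymocyte array and under the floor on both emigrant arrays, a bound of -2.34 and -2.21 on its difference. The growth factor receptor Pdgfrb read 5.58 against 3.75 and 3.71, under the floor, a bound of -1.26 and -1.13. All of these were lower on both emigrant arrays than in the thymocytes, and Bgn stayed more than 1 log2 unit above the floor there.

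Of 20 fibroblast and endothelium genes, 7 were at least 2-fold lower on both arrays, against 1.11% of all genes. None was at least 2-fold higher on both. The medians were -0.81 and -0.84, and the summed level was 11.46, 10.61 and 10.75. The 7 were Col1a2, Col3a1, Col5a2, Col6a1, Dcn, Sparc and Pdgfrb, all of fibroblasts. The endothelial genes Pecam1, Cdh5, Tek and Tie1 read 2.79 to 4.06 over the 3 arrays, under the floor. Kdr, another endothelial gene, read 5.95, 5.77 and 5.73. Thy1 and Vim on this list are also made by lymphocytes. Of 14 thymic epithelial genes none agreed; Epcam read 6.67, 5.08 and 5.69. How far fibroblasts among the DN thymocytes account for the difference was not tested.

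The 2 genes most tied to the pre-TCR stage were lower on both arrays. Ptcra, whose promoter with its E-box pair is shown above, read 9.86 on the thymocyte array, 5.56 on emigrants 1 and 7.16 on emigrants 2, a mean difference of -3.50 (limma standard error 0.70, adjusted p 1.00). Il2ra read 9.01, 5.03 and 6.61, a mean difference of -3.19, which was -1.83 with the mean of its probe sets. Socs2, a target of cytokine signalling through STAT5, read 6.78, 4.98 and 5.40. The emigrant arrays were low in both cases, emigrants 1 more so.

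Other genes of T-cell receptor assembly did not follow them on emigrants 2. Of 16 CD3 and TCR signalling genes, Ptcra and Cd3e agreed as lower, against 1.11% of all genes. Cd3e read 8.91, 6.99 and 7.68. Cd3d, another chain of the same complex, read 10.07, 7.48 and 10.16, and Cd3g read 9.14, 6.72 and 8.97. The list median was -0.64 on emigrants 1 and 0.08 on emigrants 2. None of the 7 rearrangement genes agreed, with medians of -1.30 and 0.09. Il7r, the receptor chain that early T cells need to survive, was lower on emigrants 1 and higher on emigrants 2, at 9.65, 8.44 and 11.31.

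Notch signalling sets the T-cell fate, and 2 of its receptors were lower on emigrants 1 and, by less, on emigrants 2. Notch3 read 7.53, 5.46 and 6.12, and Notch1 read 9.41, 6.48 and 8.46. Of 16 pathway genes Notch3 alone agreed, against 1.11% of all genes. The list as a whole was level, with medians of 0.09 on emigrants 1 and -0.01 on emigrants 2. By any amount, 7 of its genes were higher on both arrays and 6 lower on both, the latter against 31.5% of all genes. The target gene Dtx1 read 7.29 on the thymocyte array and 6.62 on both emigrant arrays, and Hes1 read 6.18, 6.19 and 5.74.

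Among the other lower genes named by rank, Mpzl2, an adhesion protein of the thymus, read 7.36 on the thymocyte array and lay under the floor on both emigrant arrays (3.21 and 4.02). Nrep, named for neuronal regeneration, read 8.11, 5.08 and 4.65. The chemokine Cxcl1 read 6.79, 4.24 and 4.08, both emigrant values under the floor. The imprinted gene Peg3 read 7.79, 4.56 and 4.94, with 1 of its 3 probe sets of opposite sign. Car3, a carbonic anhydrase of fat and muscle, read 7.60, 4.42 and 4.84. Khdc1a read 7.58, 4.42 and 5.20 and has near-identical copies that its probe set may share. The complement protease C1s1 read 6.24 against 3.94 and 3.93, under the floor.

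Several metabolic groups were lower by less. Of 19 glycolysis and hypoxia genes 14 were lower on both arrays by any amount, against 31.5% of all genes, and 2, Bnip3 and Egln3, by at least 2-fold, against 1.11%; the medians were -0.81 and -0.45. Ldha, which makes lactate, read 12.04, 10.98 and 11.06, and the hypoxia-induced mitophagy gene Bnip3 read 8.01, 6.94 and 6.99. Of 16 serine and asparagine synthesis genes 2 agreed, against 1.11% of all genes, with medians of -0.62 and -0.48. Shmt2, the mitochondrial enzyme that splits serine, read 8.63, 6.06 and 7.03, and the amino acid transporter Slc7a5 read 8.86, 7.35 and 6.42.

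Sterol synthesis separated the emigrant arrays, with medians of -1.54 and -0.17 over 15 genes. Hmgcs1, an early enzyme of the pathway, read 11.36, 8.45 and 11.20. Dhcr7, the last enzyme of cholesterol synthesis, was the 1 gene that agreed, at 6.42, 4.35 and 5.33. Of 23 immediate-early and stress genes, Egr1 (11.26, 9.35 and 9.89) and Jund (8.30, 7.08 and 6.56) were at least 2-fold lower on both, against 1.11% of all genes. Of 12 genes of the aryl hydrocarbon receptor battery, Cyp1b1 and Scin agreed as lower in these cultures without TCDD, against 1.11% of all genes. Cyp1b1, a monooxygenase also made by fibroblasts, read 6.73, 4.66 and 4.72, with 1 of 3 probe sets of opposite sign. Cyp1a1, its most inducible relative, read 3.84 to 3.99 and was under the floor on all 3 arrays.

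**Figure D3:**
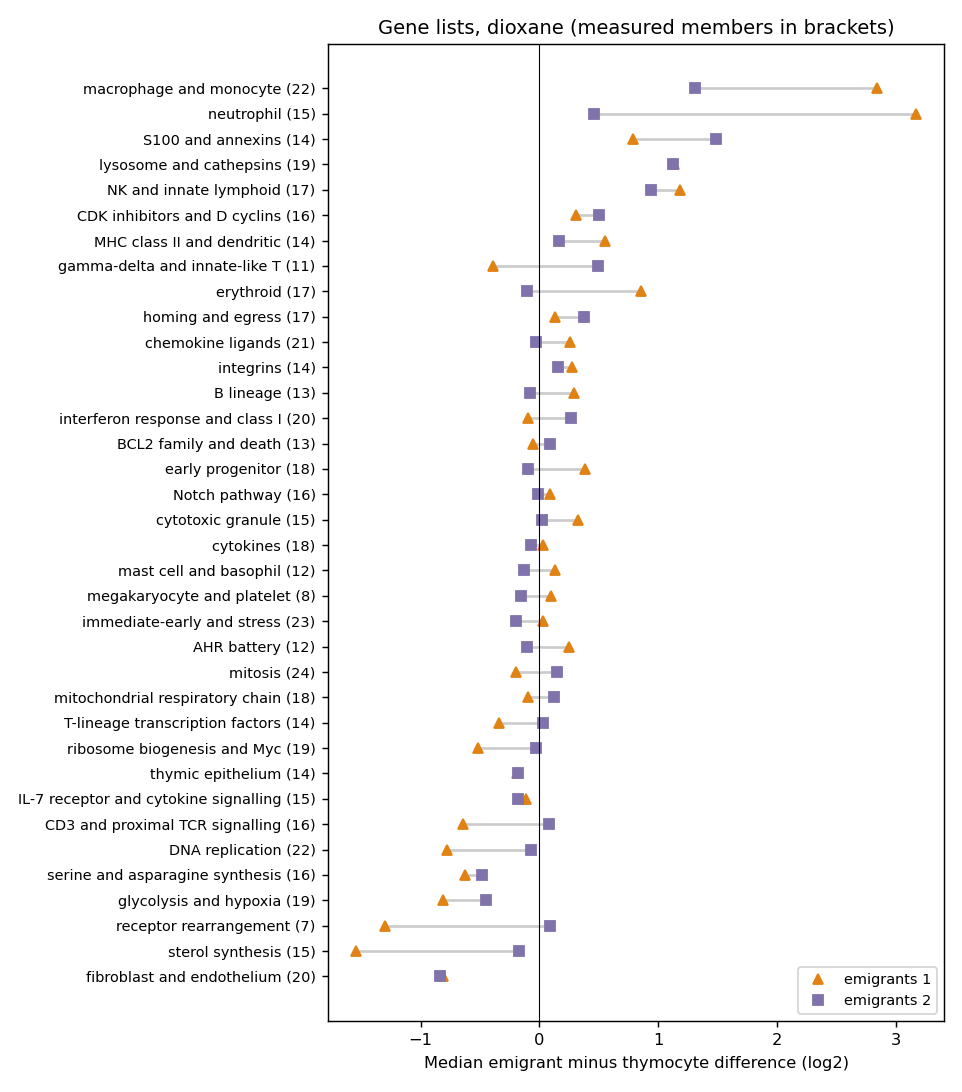
Median difference from the thymocyte array in log2 units for each of 36 gene lists on emigrants 1 (triangle) and emigrants 2 (square); brackets give the measured genes. Macrophage, lysosome, S100 and NK lists lie to the right on both arrays and the fibroblast list to the left at -0.81 and -0.84, while the neutrophil list is at 3.17 and 0.46 and sterol synthesis at -1.54 and -0.17.

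Genes at least 2-fold different in opposite directions numbered 4 higher on emigrants 1 and 15 higher on emigrants 2. Klf4, a factor of myeloid and epithelial cells, read 6.07 on the thymocyte array, 7.42 on emigrants 1 and 4.76 on emigrants 2. Tgm2, a transglutaminase of macrophages, read 6.50, 9.01 and 5.27, and the collagen gene Col14a1 read 5.37, 9.19 and 4.14 (under the floor). With that value raised to the floor, the fall of Col14a1 on emigrants 2 is under 2-fold. In the other direction, Rora, a factor of innate lymphoid and T helper cells, read 7.49, 5.67 and 8.84. Rgs1, a regulator of chemokine receptor signals in lymphocytes, read 6.73, 5.25 and 8.22, and Lztfl1 read 6.63, 5.08 and 8.10. For these genes the thymocyte value lay between the emigrant arrays.

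The TCDD arrays give a second emigrant to thymocyte comparison that shares no array with the first, although the treatment differs and the emigrant arrays carry the same numbers. There, 194 genes were at least 2-fold higher on both emigrant arrays (1.57%) and 105 lower (0.847%). Of the 152 genes higher with dioxane 61 were among the 194, which is 40.1% of the first list and 31.4% of the second. Of the 137 lower ones 23 were among the 105, or 16.8% and 21.9%. The same sign on both TCDD arrays was seen for 106 of the 152 and 91 of the 137, and the opposite sign on both for 9 and 3. The share of all genes with 1 sign on both TCDD arrays was not computed, so these sign counts lack a base. With dioxane 31.5% of all genes were lower on both emigrant arrays by any amount.

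The lists recurred to different degrees on the TCDD arrays. At least 2-fold higher on both were 19 of 22 macrophage genes (medians 3.53 and 2.69) and 14 of 19 lysosomal genes, but 1 of 17 NK genes (medians -0.12 and 0.01). None of the 20 fibroblast and endothelium genes was at least 2-fold lower on both, with medians of -0.70 and 0.03.

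Of the 15 leading higher genes 12 were again at least 2-fold higher on both TCDD emigrant arrays: Lyz2 by 6.44 and 5.55, Ccl6 by 5.69 and 5.82, and Apoe by 4.90 and 4.97. The exceptions were S100a6 (0.42 and 1.35), Selenop (0.62 and 1.56) and Eif2s3y (-2.77 and 1.5). Of the 15 leading lower genes 6 were again at least 2-fold lower on both, namely Mpzl2, Ptcra, Il2ra, Col6a2, Nrep and Khdc1a. This count takes values as read, and the floor was 4.92 on TCDD emigrants 1 and 4.34 on TCDD emigrants 2. Khdc1a read 5.03 in the TCDD thymocytes and lay under the floor on both TCDD emigrant arrays. With those values raised to the floor, its fall is under 2-fold on each. Mpzl2, Il2ra and Nrep also had emigrant values under the floor, but stayed at least 2-fold lower with these raised. Fstl1 (-3.21 and -0.65), Peg3, Cxcl1, Col5a2 and C1s1 were also lower on both, but not by 2-fold on each. Ptcra differed by -4.83 and -4.95 and Il2ra by -4.2 and -1.72. Col3a1 differed by -2.46 on TCDD emigrants 1 and by 0.67 on TCDD emigrants 2, whose level of 9.67 was above the 9.0 of the TCDD thymocytes. Bgn (-1.45 and 0.61) and Col1a2 (-1.75 and 0.22) showed the same split, and Car3 differed by -3.37 and 2.59. Ptcra and Il2ra were therefore lower on all 4 emigrant arrays than on the thymocyte array of their treatment, and Col3a1, Bgn and Col1a2 on 3 of 4. Col6a2 (-1.62 and -1.45) was lower on both TCDD emigrant arrays.

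**Figure D4:**
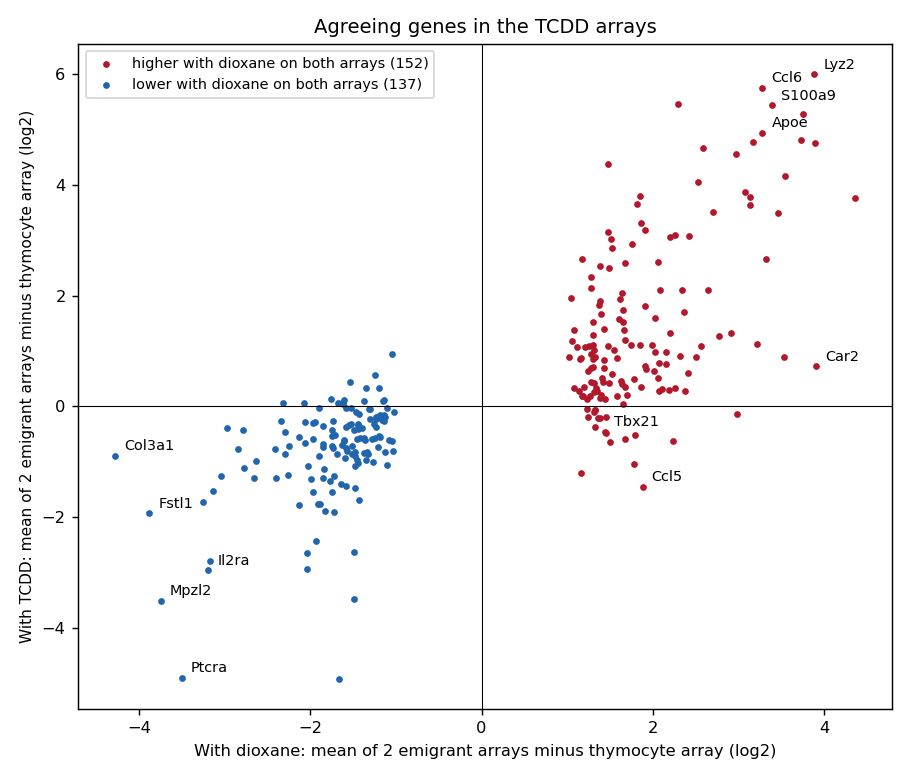
Mean emigrant minus thymocyte difference in log2 units with dioxane (x axis) and with TCDD (y axis) for the 152 higher (red) and 137 lower (blue) genes. Lyz2, Ccl6, Apoe and S100a9 lie at the upper right and Ptcra at the lower left, and Ccl5 and Tbx21 lie below 0 with TCDD.

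Probe sets without a single gene were handled apart. Of 2246 such probe sets, 26 were at least 2-fold higher and 24 lower on both emigrant arrays; they are counted and not named.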

How the data were processed

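RNA of pooled DN cells was amplified and hybridised to 1 Affymetrix array per sample. The deposited values are RMA summaries on the log2 scale, per the submitters' processing notes; the series text names the Bioconductor affy package, and its version is not given in these sources. RMA compresses the fold changes of dim genes. Of 22690 probe sets, 64 controls were left out, 691 named several genes and 1555 none; 20380 named 1 gene. Each of 12393 genes was read from its brightest probe set, by the mean of all 6 arrays. Symbols without such a probe set were not analysed here (584 of 649 symbols of the 36 lists were measured). The thymocyte value was subtracted from that of each emigrant array; genes at or past 2-fold on both agreed. Named genes were the 15 leading each way by the smaller of the 2 differences, brighter side above the highest poly-A control, and the 3 leading each way among opposite genes; clone names were only counted, and list members were named freely. limma 3.58.1 in R 4.3.3 was fitted to 4 groups with Benjamini-Hochberg adjustment and tested on simulated data. The members and lists were chosen with earlier results of these data known. The label numbers do not state a pairing: deviations of arrays 1 and 2 with dioxane and with TCDD correlated at 0.56 over genes.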

Additional observations from a re-analysis of the deposited data

Results flagged for a closer look

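In 6 results the emigrant to thymocyte difference had one sign on both dioxane arrays and the opposite sign on both TCDD arrays. For the 4 genes the difference between treatments was tested as a limma interaction and had an adjusted p of 1.00 in each; for the 2 lists it was not tested. Ccl5 was higher by 2.57 and 1.19 with dioxane and lower with TCDD (-1.34 and -1.55), a gap of 3.32 log2 units between the mean differences. Its single thymocyte array read 7.61 with dioxane and 11.28 with TCDD. The emigrant arrays read 10.18 and 8.79 with dioxane and 9.94 and 9.73 with TCDD. Cd244a, an NK and T-cell receptor, differed by 2.24 and 1.35 against -0.76 and -0.28, a gap of 2.31. Thymocytes read 4.57 with dioxane and 6.99 with TCDD, and emigrants 6.80 and 5.91 against 6.23 and 6.71. Tbx21 differed by 1.34 and 1.54 against -0.51 and -0.40, a gap of 1.90. The dioxane thymocyte value was under the floor for Cd244a and Tbx21, so their dioxane differences are bounds: with that value raised to the floor they are 2.08 and 1.19 for Cd244a and 0.81 and 1.02 for Tbx21. Bnip3 differed by -1.08 and -1.02 against 0.70 and 1.21, a gap of -2.0. Thymocytes read 8.01 with dioxane and 6.97 with TCDD, and emigrants 6.94 and 6.99 against 7.67 and 8.19. The glycolysis and hypoxia list had medians of -0.81 and -0.45 against 0.29 and 0.23, a gap of -0.89. The serine and asparagine synthesis list had medians of -0.62 and -0.48 against 0.28 and 0.06, a gap of -0.72.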

How the results depend on the processing

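The 152 higher and 137 lower genes became 401 and 420 at 1.5-fold, 39 and 35 at 3-fold, and 404 and 304 by the mean of the 2 emigrant arrays. With the mean of a gene's probe sets they were 108 and 78, of which 104 and 73 were among the first lists. On 1 emigrant array alone the counts ranged from 450 to 641 higher and from 251 to 821 lower, the larger ones on emigrants 1. The mean of a gene's probe sets kept the higher count within 1.5 times but not the lower one. Quantile, cyclic loess and median normalization, the other choices of probe set and a filter on dim genes kept both counts within 1.5 times. So did dim values raised to the floor, a setting added after the data were seen. Under 6 of these settings that apply gene by gene, 28 of the 30 leading genes stayed at least 2-fold on both arrays; Plek and Peg3 did not under 1 each. No leading gene and no list median of at least 0.3 on both arrays changed sign. limma called 0 genes under each of its 12 alternatives, the replicate block, which had 1287 genes at an unadjusted p under 0.05 and a smallest adjusted p of 0.136, and the omission of any emigrant array (0 to 0) included. Omitting either TCDD emigrant array gave the same counts as the fit on the dioxane arrays alone, so these alternatives are not separate checks. With 1 thymocyte array its own spread cannot be estimated, and values under the floor give bounds only.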
